A study of Mus musculus with 11 samples.

Results

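Mouse chromosome 10 carries 2 kinds of olfactory receptor gene. The trace amine-associated receptor (Taar) genes from Taar2 to Taar9 lie at chr10:23938572-24109534 (mm10), and a cluster of odorant receptor (OR, Olfr) genes lies 104.9 Mb further along the same chromosome, at chr10:129010791-130214403. The genes of this OR cluster were taken as every entry of the raw count table from Olfr763 to Olfr827 without a suffix. This gave 56 of 24421 entries and 56 of 1125 Olfr genes. By this rule Olfr247, which lies inside the span (0 counts in all), and Olfr9, just before it (18 counts), were counted with the other Olfr genes. All 56 mapped to chromosome 10 and were annotated as protein-coding. RNA was sequenced from whole main olfactory epithelium (MOE), with 3 wild type libraries, 4 heterozygous libraries with 1 deleted and 1 intact copy of the Taar2 to Taar9 region, and 4 homozygous libraries with the region deleted from both copies. Per the labels, all pups were C57BL/6 at postnatal days 1 to 2. The reporting part of the paper describes this line at an older age and on a mixed strain background, and which description applies was not settled here. The deletion also removed TAAR enhancer 2, which sits inside the Taar cluster, and left TAAR enhancer 1 in place. The OR cluster lies outside the deleted region, and its DNA was not examined here. Nothing in the labels says that libraries came from separate animals or litters, so p-values measure only the spread between these libraries.

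ORs are G protein-coupled receptors, and each mature OR-expressing olfactory sensory neuron (OSN) expresses a single OR gene from a single allele. Per the paper, Taar genes are expressed in other OSNs, which do not express OR genes alongside them. Choice among OR genes takes place on chromatin that is silenced by H3K9me3 and H4K20me3, and it involves enhancers known as Greek islands, which are bound by Lhx2, Ebf and Ldb1. The level of an OR gene in whole MOE therefore reflects both how many neurons chose it and how much RNA each of them holds, and in these bulk libraries the 2 cannot be told apart. Mouse OR genes also carry MOR names, in which the first number gives a family based on protein similarity.

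The 56 genes spanned 1.2 Mb, with a median gap of 10.8 kb and a largest gap of 48.8 kb between neighbours. Neighbours were taken among these 56 genes only, passing over other genes and pseudogenes between them. They were placed on both strands, 26 on the plus and 30 on the minus strand. MOR names were found for 55 of them, in 13 families. MOR114 had 13 genes, MOR111 had 10, MOR110 had 9, and MOR113 and MOR210 had 5 each. The families were interleaved, with 31 runs of 1 to 6 neighbouring genes and 25 of 55 neighbouring pairs in the same family. MOR210 formed 1 run at the distal end, from Olfr823 to Olfr827. The coding sequences were 924 to 984 bases long. Identity between coding sequences of the same family had a median of 74.0% over 187 pairs (range 59.6 to 99.2%), against 65.2% over 1298 pairs from different families (range 49.0 to 73.6%).

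All 56 coding sequences held the DRY motif, a conserved motif at the inner end of the third transmembrane helix of ORs. It was searched in the translated sequence with the residues that usually flank it, and with Phe allowed in place of its last residue, and the same was found in 874 of 1040 other Olfr genes with a protein-coding transcript (84.0%). The 30 bases around it are shown for the 5 genes of highest level (Olfr820, Olfr827, Olfr801, Olfr769 and Olfr805), for Olfr781, Olfr788 and Olfr791, which are described further in the genotype comparisons, and for Olfr784, one of few with another last codon, with the 3 codons of the motif in capitals. Coordinates are mm10, and each sequence is written on the coding strand.
Olfr820, chr10:130017708-130017737, plus strand: atgtcctatGACCGCTATgttgccatttgc
Olfr827, chr10:130210712-130210741, minus strand: atggcctatGACCGCTTCattgccatctgc
Olfr801, chr10:129670143-129670172, minus strand: atgtcctatGACCGATATgtagccatctgc
Olfr769, chr10:129112049-129112078, minus strand: atgtcctacGATCGCTACgtagccatctgc
Olfr805, chr10:129723168-129723197, minus strand: atgtcctatGACCGATATgtagccatctgc
Olfr788, chr10:129473036-129473065, plus strand: atgtcctatGACCGCTATgttgccatctgt
Olfr781, chr10:129333225-129333254, plus strand: atgtcttatGATCGATATgtggccatctgt
Olfr791, chr10:129526574-129526603, plus strand: atgtcctatGATCGTTATgtggccatctgt
Olfr784, chr10:129387980-129388009, plus strand: atgtcttatGACCGCTTTgtagccatctgc
The last codon of the motif was TAT or TAC in 49 genes and TTT or TTC in 7. Those 7 were all 5 genes of MOR210, including Olfr827, and Olfr784 and Olfr819. Olfr801 and Olfr805 of MOR110 were identical over these 30 bases, and Olfr806 of MOR110 and Olfr777 and Olfr800 of MOR114 held the same 30 bases.

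Several genes of the cluster are near-identical copies of another gene of the cluster, which limits how well short reads can be assigned to them. Coding sequences differed at 7 bases between Olfr772 and Olfr773, at 12 between Olfr823 and Olfr824, at 17 between Olfr765 and Olfr767, and at 30 between Olfr777 and Olfr800. The 51 bases with the most differences are shown for 3 of these pairs, with the differing bases in capitals.
Olfr772, chr10:129174203-129174253, minus strand: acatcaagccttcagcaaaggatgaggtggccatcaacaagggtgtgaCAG
Olfr773, chr10:129186603-129186653, minus strand: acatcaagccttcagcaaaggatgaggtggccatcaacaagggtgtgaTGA
Olfr823, chr10:130112527-130112577, minus strand: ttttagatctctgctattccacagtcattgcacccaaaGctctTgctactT
Olfr824, chr10:130126794-130126844, minus strand: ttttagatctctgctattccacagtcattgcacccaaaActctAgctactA
Olfr777, chr10:129268697-129268747, minus strand: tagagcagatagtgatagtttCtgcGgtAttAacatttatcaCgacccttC
Olfr800, chr10:129660382-129660432, plus strand: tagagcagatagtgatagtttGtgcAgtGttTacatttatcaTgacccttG
The longest stretch without a difference was 509 bases for Olfr772 and Olfr773, 484 for Olfr823 and Olfr824, and 102 for Olfr777 and Olfr800. Each coding sequence was cut into all stretches of 51 bases, and the share of stretches that also occurred in a transcript of another gene was counted. It was 0 in 12 genes, above 10% in 37 genes and above 50% in 9 genes. The highest share was 85.9%, in Olfr782, whose copies included Olfr779, a polymorphic pseudogene that was not analysed here. How the authors treated reads with several positions is not given in the sources used here.

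Libraries held 9239866 to 14632525 counts. Taar2 to Taar9 summed to 94, 87 and 119 counts in the wild type libraries, to 96, 89, 68 and 31 in the heterozygous ones, and to 1, 1, 2 and 3 in the homozygous ones, which matched the labels. Homozygous replicate 2 had 25.8% of its counts on Rn45s, a ribosomal RNA precursor. Outside the receptor genes, the first principal component (42.7% of the variance) split the libraries into 2 sets that cut across genotype, and the labels name no batch. Set 1 was wild type replicates 1 and 2, heterozygous 3 and 4, and homozygous 1 and 2, and set 2 was wild type 3, heterozygous 1 and 2, and homozygous 3 and 4. The skeletal muscle list (6 of 6 genes detected) summed to 5.47 to 50.03 CPM in wild type, 14.1 to 1469 in heterozygous and 16.3 to 687 in homozygous libraries. Acta1, the muscle actin gene, was above 100 CPM in heterozygous replicates 2 and 4 and homozygous replicates 2 and 3. Of 5 erythrocyte genes, the 4 adult globin genes were listed at 0 in all libraries. Among the other lists, summed levels overlapped between genotypes for mature OSN (8 genes), immature OSN (5), neuronal precursor (4), sustentacular (4), horizontal basal (4) and respiratory ciliated markers (4), and all of these genes were detected.

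The 56 genes drew 6666 counts over the 11 libraries, and each had at least 1 count. Their median was 89.5 counts per gene over all libraries, against 80.0 for the 1069 other Olfr genes. In 40 genes every library had a count. The highest total was 433 counts, and 44 other Olfr genes lay above it, led by Olfr536 with 5478 counts. Levels were compared between genes as CPM, counts scaled to a normalised library total, per kb of RefSeq gene model, because gene models of 927 to 1677 bases would otherwise favour the longer ones. The 12 highest genes held 51.01% of the counts of the cluster.

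Olfr820, the only MOR116 gene, led the cluster at chr10:130012621-130021286 with 3.51 ± 1.3 CPM per kb (SD, n = 11). Olfr827 of MOR210 followed with 3.002 ± 1.51 and Olfr801 of MOR110 with 2.86 ± 1.203, and the spreads of the 3 overlapped. Olfr769, Olfr805, Olfr791, Olfr777, Olfr796, Olfr794, Olfr812, Olfr788 and Olfr810 had means from 2.39 down to 1.69 CPM per kb. At the other end, Olfr773 had 1 count in 1 library, heterozygous replicate 2, Olfr823 had 6 counts in 3 libraries, Olfr814 had 10 counts in 7 libraries and Olfr765 had 14 counts in 9 libraries. Each of these 4 genes has a close copy in the cluster (95.9 to 99.2% identity). The copies had 68 counts for Olfr772, 23 for Olfr824, 21 for Olfr815 and 23 for Olfr767. Higher levels in the copies follow from naming the 4 lowest genes. With exon lengths of the GENCODE annotation, which include long untranslated parts (936 to 8466 bases in all), 8 of the 12 highest genes stayed among the 12 highest, Olfr812 came first and Olfr827 moved to rank 19.

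**Figure D1:**
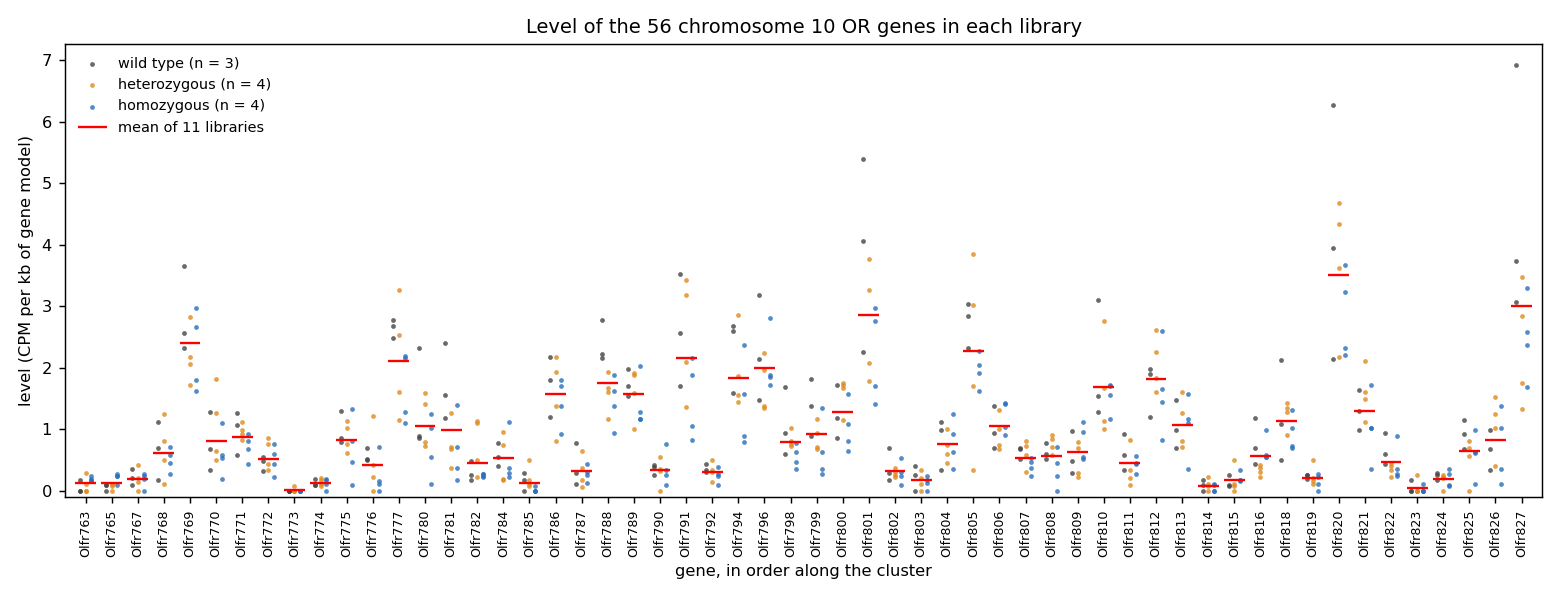
Level of each gene of the chromosome 10 OR cluster in CPM per kb of gene model (vertical axis), in order along the cluster (horizontal axis), with 1 point per library coloured by genotype and a red line at the mean of 11 libraries. High and low genes alternate along the cluster, and Olfr820 (mean 3.51), Olfr827 (3.002) and Olfr801 (2.86) lead.

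Level showed little trend from 1 end of the cluster to the other. The Spearman correlation between order and level was 0.13 over 56 genes, which share the same libraries and depth. Direct neighbours differed by a median factor of 2.94 over 55 pairs, and pairs further apart were not compared. Levels differed most between the genes of most and least unique coding sequence, as a description. The 12 genes with no shared stretch had a median level of 1.44 CPM per kb (range 0.338 to 3.51), and the 9 genes with more than 50% shared stretches had a median of 0.207 (range 0.00762 to 0.823). Between these ends the medians were alike, at 0.814 for the 7 genes with up to 10% (range 0.169 to 3.002) and 0.779 for the 28 genes between 10 and 50%, which included Olfr801 and Olfr805. The part of unassigned reads in these levels was not tested.

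**Figure D2:**
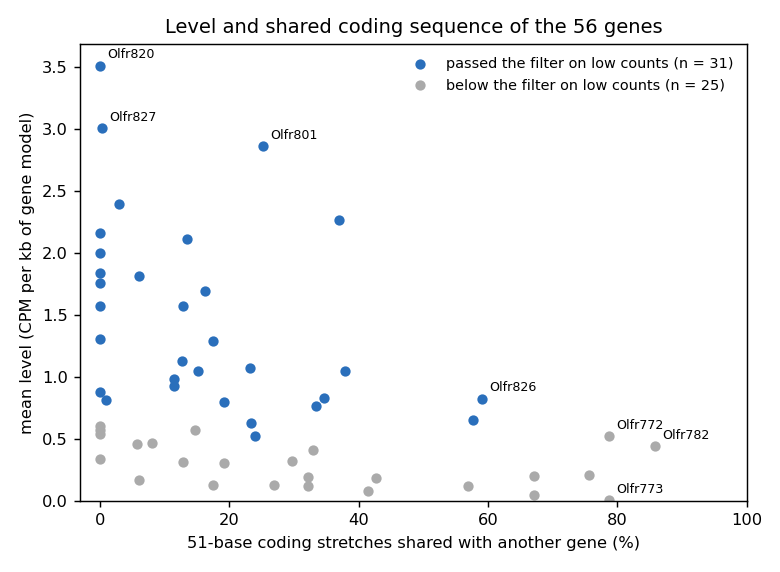
Mean level of each of the 56 genes in CPM per kb of gene model (vertical axis) against the percentage of its 51-base coding stretches that occur in another gene (horizontal axis), with the 31 genes that passed the filter on low counts in blue and the other 25 in grey. Genes above 50% shared stretches all lie at or below 0.823 CPM per kb, while unshared genes reach 3.51.

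By family, MOR114 held 28.8% of the counts of the cluster (13 genes, 1923 counts), MOR110 held 21.3% (9 genes, 1423 counts), MOR111 held 13.7% (10 genes, 915 counts) and MOR210 held 8.96% (5 genes, 597 counts, of which Olfr827 gave 380). Of the cluster's counts per library, MOR114 held 23.7 to 32.3%, MOR110 18.8 to 24.2%, MOR111 11.6 to 17.2% and MOR210 6.27 to 11.4%. Mean shares of MOR114 were 29.6% in wild type, 30.04% in heterozygous and 26.3% in homozygous libraries, those of MOR110 were 20.4%, 21.5% and 22.2%, and those of MOR210 were 10.2%, 7.59% and 8.94%. The Spearman correlation of the 56 counts between libraries had a median of 0.79 in 15 pairs of the same genotype and 0.82 in 40 pairs of different genotypes (range 0.68 to 0.93 over all pairs). The order of genes from high to low thus varied between libraries of 1 genotype about as much as between genotypes. Among the 31 genes that passed the filter on low counts, those whose CPM over the 11 libraries ran most like that of Olfr820 were all of MOR114. They were Olfr791 (Spearman correlation 0.87), Olfr794 (0.78) and Olfr780 (0.76). MOR114 gave 10 of these 31 genes. The level of OR genes in general also moved between libraries, with 764 to 1284 CPM for the sum of other Olfr genes.

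Levels also differed widely within families. MOR114 ran from Olfr769 at 2.39 CPM per kb, over Olfr791 (2.16), Olfr777 (2.11) and Olfr794 (1.84), down to Olfr773. MOR110 ran from Olfr801 to Olfr782 at 0.443, and MOR111 from Olfr788 at 1.76 to Olfr774 at 0.128. In MOR210, Olfr827 was followed by Olfr826 at 0.823 and Olfr825 at 0.650. MOR113 was led by Olfr810 at 1.69 and MOR108 by Olfr813 at 1.07. MOR269 had 1 high gene, Olfr796 (2.0), and 1 low gene, Olfr763 (0.121). Families with 1 gene also differed widely, with Olfr820 (MOR116) at 3.51, Olfr821 (MOR109) at 1.3, Olfr807 (MOR117) at 0.538, Olfr819 (MOR265) at 0.207 and Olfr767 (MOR115) at 0.190.

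The first comparison asks whether the summed level of the OR cluster, on the same chromosome as the deletion, differed between genotypes. The summed CPM was 62.4, 48.1 and 70.8 in wild type, 50.5, 61.4, 54.0 and 39.3 in heterozygous, and 47.1, 34.8, 54.9 and 36.7 in homozygous libraries. Group means were 60.4 ± 11.5 (SD, n = 3), 51.3 ± 9.22 (n = 4) and 43.4 ± 9.40 (n = 4), and the ranges of all 3 groups overlapped. Of the 4 homozygous libraries, 3 lay below every wild type library. The homozygous sum was 71.8% of the wild type sum, with a fitted log2 difference of -0.48 (SE 0.20). Heterozygous against wild type gave -0.23 (SE 0.21), from -0.38 when wild type replicate 2 was left out to -0.11 when replicate 3 was. Homozygous against heterozygous gave -0.24 (SE 0.19), from -0.38 leaving out homozygous replicate 3 to -0.15 leaving out heterozygous replicate 2. Within set 1 the homozygous mean was 74.1% of wild type, with no overlap between 2 and 2 libraries, and within set 2 it was 64.6%, with 2 libraries against 1. Without the 4 libraries with Acta1 above 100 CPM, a choice made after seeing the data, the homozygous difference was -0.64. Summed over only the 19 genes with at most 10% shared stretches, also chosen afterwards, it was -0.51.

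Other Olfr genes had means in the same order. Their summed CPM was 1177 ± 117 in wild type, 1078 ± 154 in heterozygous and 977 ± 152 in homozygous libraries, so the homozygous mean was 83.0% of wild type, and 3 of 4 homozygous libraries lay below every wild type library, as for the cluster. Within set 1 the homozygous mean of other Olfr genes was 77.7% of wild type and within set 2 it was 84.2%, with no overlap in either set. The sum of 8 mature OSN markers (Omp, Stoml3, Cnga2, Cnga4, Adcy3, Gnal, Ano2 and Rtp1) had means of 1831, 1634 and 1504 CPM, with ranges of 1297 to 2283, 1369 to 1924 and 1251 to 1603. Within set 1, libraries kept the same order in the mature OSN sum and in the sum of the OR cluster. They ran from wild type replicate 1 (2283 and 62.4 CPM) down to homozygous replicate 2 (1251 and 34.8 CPM). Within set 2 the orders did not match. There, wild type replicate 3, with the highest sum of the OR cluster (70.8 CPM), had the lowest mature OSN sum, at 1297 CPM. The part of mature OSN content in the sum of the OR cluster was not tested.

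Per 1000 counts of other Olfr genes, the cluster had 52.2, 45.7 and 55.1 counts in wild type, 46.5, 50.3, 47.4 and 45.6 in heterozygous, and 48.0, 45.5, 49.2 and 35.0 in homozygous libraries. Homozygous replicate 4 was the lowest, and the other 10 libraries lay between 45.5 and 55.1. As a share of all Olfr counts it had 3.38% (95% Wilson interval 3.08 to 3.71%), and the other 10 libraries had 4.36 to 5.23%. Such intervals cover counting error only. Group means were 51.01 ± 4.83 (SD, n = 3), 47.4 ± 2.04 (n = 4) and 44.4 ± 6.46 (n = 4). The homozygous mean was 87.1% of wild type, a log2 ratio of -0.20, and all groups overlapped. Without homozygous replicate 4 the ratio was -0.10. Within set 1 it was -0.07, with overlap, and within set 2 it was -0.39, with 2 libraries against 1. Heterozygous against wild type gave -0.11 (set 1 -0.07, set 2 -0.19), from -0.18 without wild type replicate 2 to -0.046 without replicate 3. Homozygous against heterozygous gave -0.09 (set 1 0.01, set 2 -0.20), from -0.15 without homozygous replicate 3 to 0.0043 without replicate 4. 

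**Figure D3:**
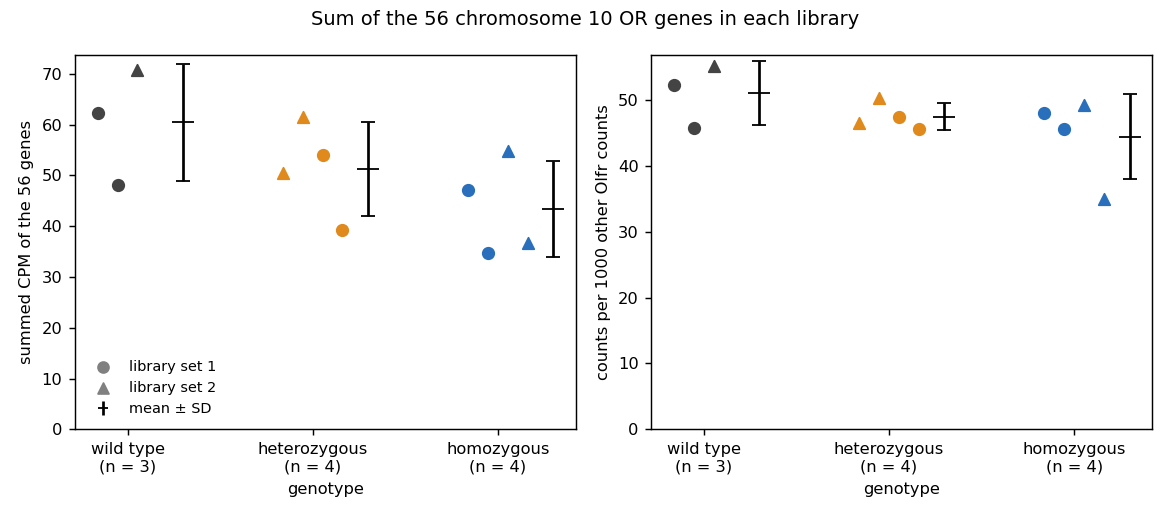
Left, summed CPM of the 56 genes; right, their counts per 1000 counts of other Olfr genes; 1 point per library by genotype (horizontal axis), circles for set 1 and triangles for set 2, with black bars for mean ± SD. Genotypes overlap in both panels, and homozygous replicate 4 is lowest on the right at 35.0.

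For tests of single genes, 31 of 56 genes (55.4%) passed the filter on low counts, against 537 of 1069 other Olfr genes (50.2%). The filter fell between Olfr787 with 75 counts in all, which did not pass, and Olfr784 with 83, which did. Biological variation between libraries of a genotype was 34.3% at the median of the 31 genes, from 22.4% in Olfr788 to 51.9% in Olfr784, against 31.8% for other Olfr genes and 22.7% for all genes.

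In homozygous against wild type libraries, 0 of 31 genes passed an adjusted p of 0.05 (edgeR quasi-likelihood test, lowest adjusted p 0.996), and 0.0% of all 16574 genes did. The deleted Taar2 to Taar9 genes were thus not called by edgeR either. They summed to 87 to 119 counts in wild type and to 1 to 3 in homozygous libraries. At such counts, a call of 0 genes does not show that levels were alike. DESeq2 called 0 of 56 genes, against 0.0371% of all genes. At an unadjusted p under 0.05, 3 of the 31 genes were lower and 0 higher, against 3.02% of all genes tested (1.21% lower, 1.81% higher) and 5.96% of other Olfr genes, all lower. DESeq2 also gave 3 of 56, Olfr781, Olfr801 and Olfr827, against 2.93% of all genes and 3.25% of other Olfr genes. Fold changes were negative in 27 of 31 genes, with a median of -0.39, while the median was -0.28 for other Olfr genes (395 of 537 negative) and 0.02 for all genes. Chromosome 9, which holds the larger comparison set of 50 tested Olfr genes, had a median of -0.41, and 4 other tested Olfr genes on chromosome 10 had -0.25. When libraries were scaled to other Olfr counts instead, which moves the median of all genes to 0.30, the median of the 31 genes was -0.12 with 22 of 31 negative, that of other Olfr genes was -0.03 with 281 of 537 negative, and that of chromosome 9 was -0.15 with 31 of 50 negative. Of the 31 genes, 0 had an unadjusted p under 0.05 in this scaling. The count of 3 became 1 without homozygous replicate 2 and also without homozygous replicate 4.

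The 3 genes were Olfr781, Olfr788 and Olfr827. Olfr781 (MOR114, chr10:129328854-129333844) had 1.11, 2.24 and 1.45 CPM in wild type, 0.340, 1.18, 0.663 and 0.642 in heterozygous and 0.168, 1.31, 0.660 and 0.344 in homozygous libraries. Of the 4 homozygous libraries 3 lay below all wild type ones, and replicate 2 lay within their range. The log2 difference was -1.41 (SE 0.57, unadjusted p = 0.0311, edgeR), and it rested on 2 to 28 counts per library in these groups. Olfr781 shares 11.6% of its stretches, most of them with Olfr799, which had -1.04 (SE 0.50) in the same comparison.

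Olfr788 (MOR111, chr10:129470998-129476618), which shares no stretch with any gene, had 2.59, 2.08 and 2.02 CPM in wild type, 1.09, 1.57, 1.80 and 1.5 in heterozygous and 1.51, 0.872, 1.76 and 1.29 in homozygous libraries. Every heterozygous and homozygous library lay below every wild type library. It differed by -0.70 on the log2 scale (SE 0.31, unadjusted p = 0.0425, edgeR), and the spread within genotypes was the smallest among the 31 genes.

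Olfr827 (MOR210, chr10:130203049-130214403), the gene at the distal end, had 3.61, 2.97 and 6.70 CPM in wild type, 1.70, 3.37, 2.75 and 1.28 in heterozygous and 3.20, 2.29, 2.49 and 1.64 in homozygous libraries. Wild type replicate 3 stood far above the rest, and homozygous replicate 1 lay between wild type replicates 1 and 2. The fitted difference was -0.88 (SE 0.39, unadjusted p = 0.0442, edgeR), and -0.45 without wild type replicate 3.

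Groups did not overlap in 3 of the 31 genes, Olfr777, Olfr788 and Olfr805, each with every homozygous library below every wild type library, against 2.48% of all genes tested and 10.4% of other Olfr genes. In wild type libraries Olfr777 had 2.59, 2.33 and 2.50 CPM, and the homozygous ones gave 2.02, 1.2, 2.05 and 1.03. For Olfr805 the wild type values were 2.22, 2.73 and 2.91 CPM and the homozygous ones 2.19, 1.96, 1.83 and 1.55, a gap smaller than the SD of either group, while heterozygous values ran from 0.321 to 3.70. No gene had every homozygous library above every wild type library, against 2.51% of all genes and 0.0% of other Olfr genes.

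The leading gene, Olfr820, overlapped fully. It had 3.71, 2.0 and 5.89 CPM in wild type, 3.40, 4.39, 4.08 and 2.03 in heterozygous, and 3.03, 2.18, 3.45 and 2.07 in homozygous libraries. Its log2 difference was -0.52 (SE 0.38), from -0.83 without wild type replicate 2 to -0.079 without replicate 3. Olfr801 had 3.89, 2.16 and 5.17 CPM without the deletion and 1.35, 1.64, 2.64 and 2.84 with both copies deleted, a difference of -0.81 on the log2 scale (SE 0.39, unadjusted p = 0.0597, edgeR) and -0.50 without wild type replicate 3. Values above 0 were found in 4 genes, Olfr806 (0.26), Olfr813 (0.03), Olfr826 (0.14) and Olfr809 of MOR108 (0.42, SE 0.54), each smaller than its SE. By family, all 10 tested MOR114 genes (median -0.66) and all 4 MOR111 genes (-0.40) were negative, as were 6 of 7 MOR110 genes (-0.17), while the 3 tested MOR108 genes ran from -0.90 to 0.42.

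In the other genes of high level the genotypes overlapped. Olfr791 (MOR114) had 2.41, 1.6 and 3.31 CPM in wild type, 1.97, 2.98, 3.22 and 1.28 in heterozygous and 2.02, 0.982, 1.76 and 0.775 in homozygous libraries, with -0.80 (SE 0.43) between the first and last of these groups, and -0.51 leaving out wild type replicate 3. Olfr769, also of MOR114, had 3.43, 2.41 and 2.18 CPM in wild type, 2.65, 2.04, 1.61 and 1.93 in heterozygous and 1.68, 1.53, 2.79 and 2.50 in homozygous libraries, with -0.32 (SE 0.31), from -0.48 without homozygous replicate 3 to -0.10 without wild type replicate 1. Olfr796 (MOR269) had 2.97, 2.0 and 1.37 CPM, then 1.84, 1.26, 2.08 and 1.28, then 1.6, 2.62, 1.76 and 1.72 in the same order of groups, with -0.14 (SE 0.34). None of these 3 genes had a homozygous group apart from the others. Olfr812 (MOR110) had -0.04 (SE 0.38), Olfr810 (MOR113) -0.36 (SE 0.42) and Olfr794 (MOR114) -0.68 (SE 0.42), or -1.05 without homozygous replicate 3.

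**Figure D4:**
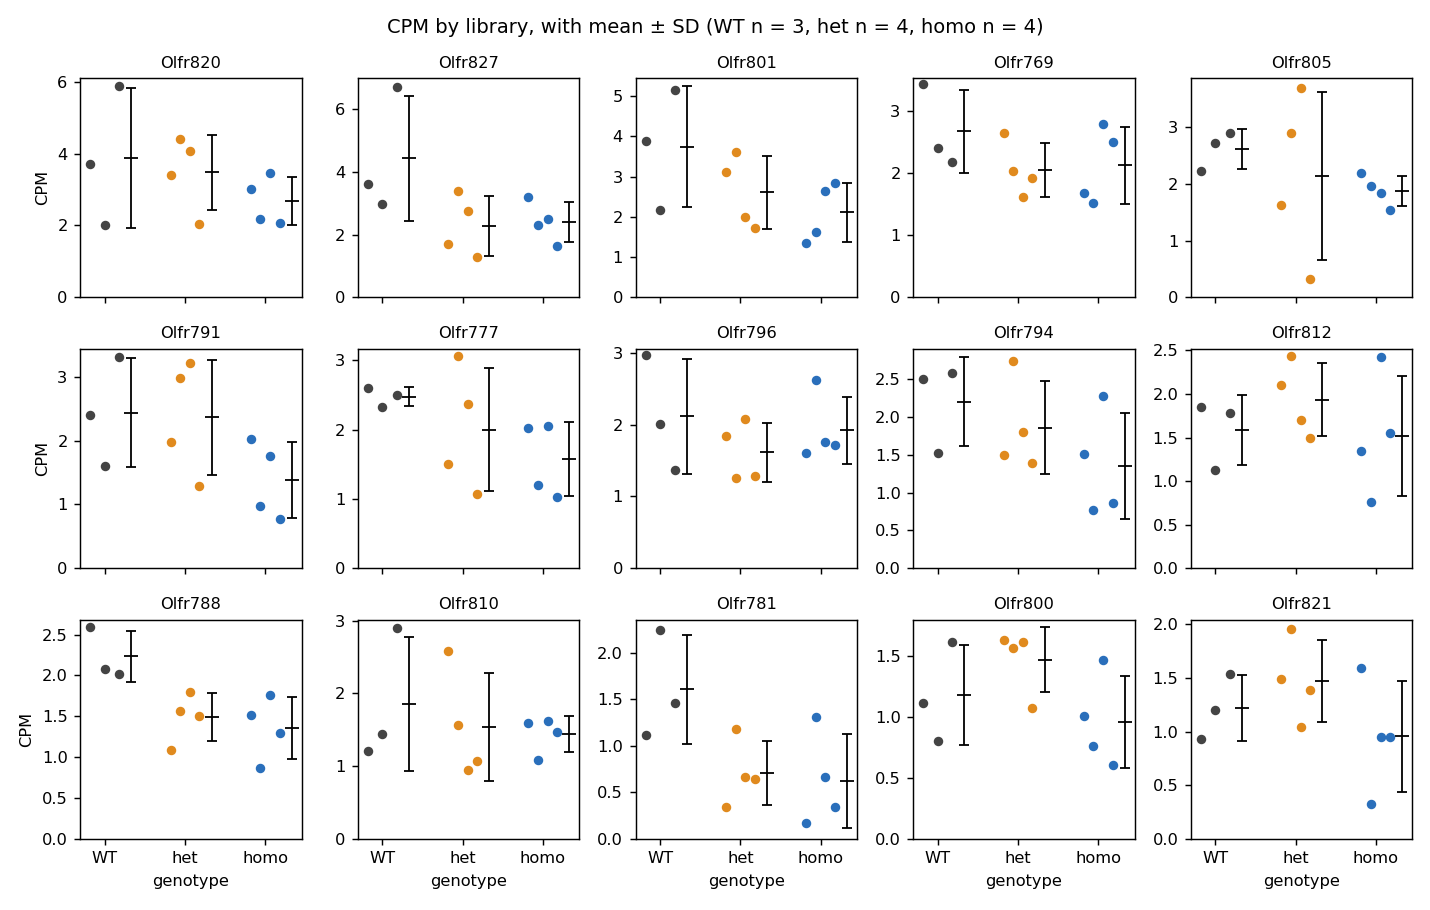
CPM of 15 genes of the cluster in each library (vertical axes from 0, scales differ between panels) by genotype (horizontal axis: WT wild type, het heterozygous, homo homozygous), with mean ± SD at the right of each group. Only in Olfr777, Olfr788 and Olfr805 do all homozygous points lie below all wild type points.

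Heterozygous against wild type libraries shared the wild type controls with the comparison above. Here 0 of 31 genes passed an adjusted p of 0.05 (edgeR, lowest adjusted p 1.0), against 0.0% of all genes, and DESeq2 called 0 of 56, against 0.0139% of all genes. At an unadjusted p under 0.05, 1 gene was lower by edgeR and 1 by DESeq2, Olfr827 in both, against 2.24% of all genes by edgeR (0.495% lower, 1.75% higher) and 2.28% by DESeq2. Olfr827 was at -0.95 on the log2 scale (SE 0.39, unadjusted p = 0.0313, edgeR), and at -0.52 without wild type replicate 3, and 3 of 4 heterozygous libraries lay below all wild type ones. Olfr781 followed with -1.18 (SE 0.56) and Olfr788 with -0.59 (SE 0.31). The median of the 31 genes was -0.17 with 24 negative, against -0.13 for other Olfr genes (349 of 537 negative), -0.24 for Olfr genes on chromosome 9 (35 of 50) and 0.20 for 4 other Olfr genes on chromosome 10 (1 of 4). It ran from -0.37 without wild type replicate 2 to -0.10 without heterozygous replicate 4. Scaled to other Olfr counts, which moves the median of all genes to 0.14, it was -0.03 with 19 negative, against -0.01 for other Olfr genes (275 of 537) and -0.14 on chromosome 9 (30 of 50). Groups did not overlap in 1 gene, Olfr788, which was lower, against 1.1% of all genes lower and 1.41% higher, and 3.72% of other Olfr genes lower. The count of 1 became 0 without heterozygous replicate 1 or 4, 0 without the 4 libraries high in Acta1, and 2 without wild type replicate 1 or 2, heterozygous replicate 2, or homozygous replicate 1 or 2.

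In homozygous against heterozygous libraries, 0 of 31 genes passed an adjusted p of 0.05 (edgeR, lowest adjusted p 1.0), against 0.0% of all genes, and DESeq2 called 0 of 56, against 0.00927%. None of the 31 genes had an unadjusted p under 0.05 by edgeR, against 0.561% of all genes (0.241% lower, 0.32% higher), and 1 had by DESeq2, which keeps all 56 genes, against 0.556% of all genes. That gene was Olfr782, named here because it was the only one, which shares 85.9% of its stretches. The lowest p among the 31 belonged to Olfr791 with -0.76 (SE 0.40), Olfr800 with -0.60 (SE 0.35) and Olfr821 with -0.60 (SE 0.40, from -0.95 leaving out homozygous replicate 1 to -0.35 leaving out replicate 2), and in all 3 the groups overlapped. The median was -0.31 with 24 of 31 negative, against -0.14 for other Olfr genes (366 of 537 negative), -0.30 for Olfr genes on chromosome 9 (42 of 50) and -0.27 for 4 other Olfr genes on chromosome 10 (4 of 4). Scaled to other Olfr counts, which moves the median of all genes to 0.15, it was -0.16 with 18 negative, against 0.00091 for other Olfr genes (267 of 537) and -0.15 on chromosome 9 (33 of 50). In the first scaling it was -0.11 without heterozygous replicate 2 and -0.15 without homozygous replicate 4. Every library of 1 group lay beyond every library of the other in 0 of the 31 genes, against 0.302% of all genes for lower and 0.296% for higher. The count of 0 became 1 to 3 without wild type replicate 1, 2 or 3, heterozygous replicate 4, or homozygous replicate 1 or 3.

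**Figure D5:**
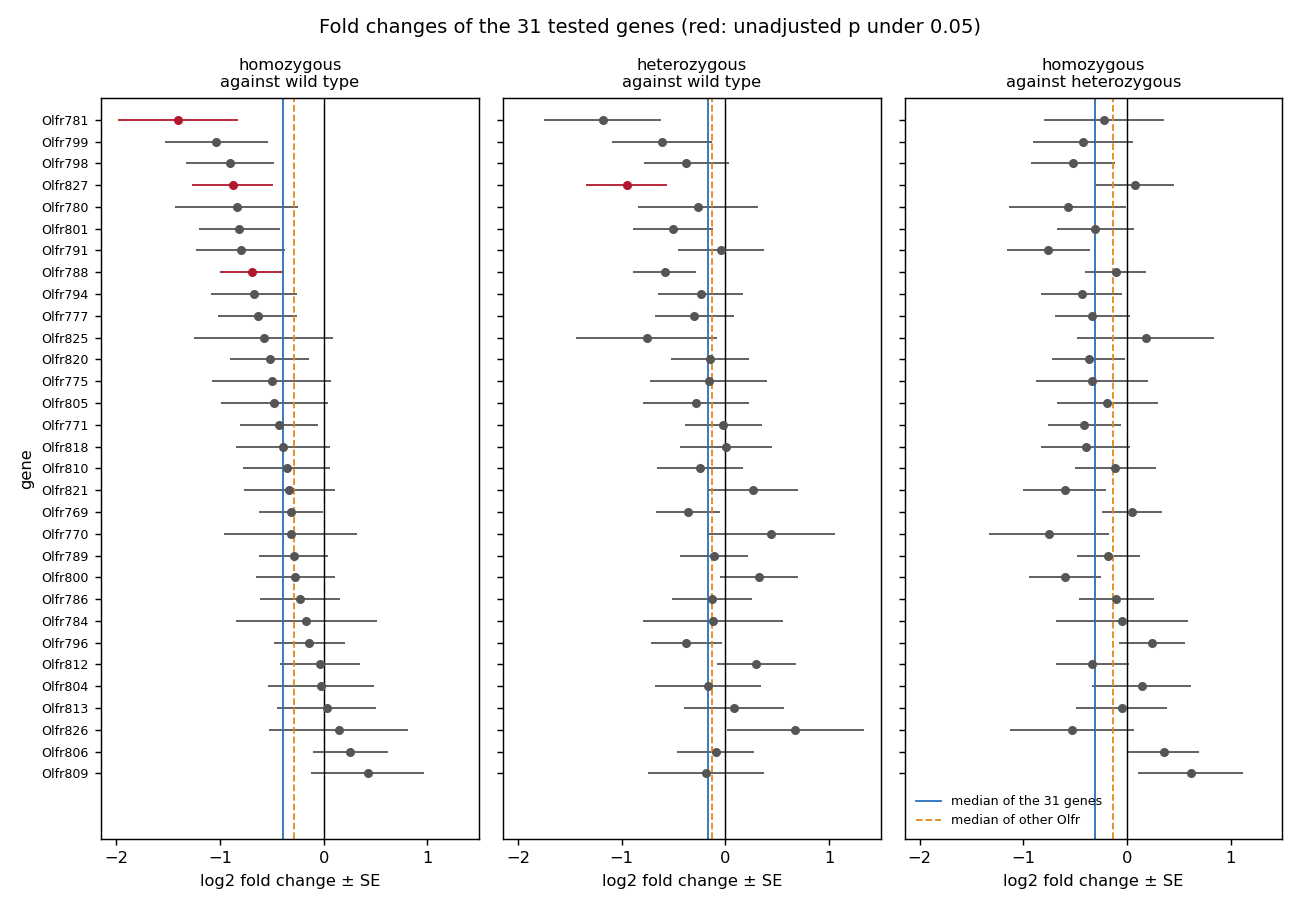
Log2 fold changes (horizontal axes, error bars SE) of the 31 tested genes (vertical axis, ordered by the first panel) in the 3 genotype comparisons, with unadjusted p under 0.05 in red, a blue line at the median of the 31 genes and a dashed orange line at the median of other Olfr genes. The first panel has 27 genes left of 0 and 3 red points, the second 24 and 1, and the third 24 and none.

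The genes that serve OR choice and OR signalling were listed as a background for the cluster. The list had 21 genes, among them the enhancer factors Lhx2, Ldb1 and Ebf1 to Ebf4, the demethylase Kdm1a, the OR trafficking proteins Rtp1 and Rtp2, and the transduction genes Gnal, Adcy3, Cnga2 and Ano2. All 21 were tested, and 0 passed an adjusted p of 0.05 in any of the 3 comparisons (edgeR), with 0 also at an unadjusted p under 0.05. In homozygous against wild type libraries 15 were lower and 6 higher, with a median of -0.15, from -0.40 in Cngb1, a subunit of the olfactory channel, to 0.43 in Ldb1. Gnal, the olfactory G protein, had 427 ± 95.1 CPM in wild type (SD, n = 3) and 337 ± 39.3 in homozygous libraries (n = 4). Lhx2 had 291 ± 49.6 and 338 ± 51.7 CPM. Rtp1 had 269 ± 59.1 and 226 ± 19.5 CPM. None of the 3 passed the test.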

How the data were processed

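Per the labels and the methods, the authors aligned reads to mm10 with HISAT2 (2.1.0) and deposited raw counts per gene from featureCounts (Subread 1.6.2). The annotation, strand setting and treatment of multiply mapped reads are not given in the sources used here. The normalised signal that the authors deposited, counts divided by a size factor, only supplied the gene list of 1 alternative. The genes, lists and tests were chosen with earlier results of these data known. Genes were tested with edgeR (4.0.16, R 4.3.3; TMM, filterByExpr, quasi-likelihood test) in 1 fit of 11 libraries over 16574 genes, with Benjamini-Hochberg adjustment, and DESeq2 (1.42.0) was an alternative. CPM were TMM-scaled. The sum was fitted as 1 feature and given without p. Scripts were tested on simulated data. Coordinates and coding sequences came from GENCODE M21, gene models and MOR names from RefSeq. Promoter windows of 44 of 45 genes missed the GENCODE start and are not shown. Single genes were named by rule: the 12 highest and 4 lowest levels, and the 3 lowest p per comparison. Other genes, named as members of a small count, copies, family members or ends of a range, were chosen after their values were seen. Total counts of 9239866 to 14632525 left single genes at 0 to 83 counts per library. Alternatives were RLE or other-Olfr scaling, no filter, 2 genotypes only, a replicate block, library set, leave-one-out and the genes of the normalised table.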

Additional observations from a re-analysis of the deposited data

Results flagged for a closer look

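In 34 groups of 4 libraries (the sum, its ratio to other Olfr counts and 15 named genes, in heterozygous and homozygous libraries), 2 held a library whose gap to its nearest neighbour exceeded Dixon's 95% critical share of the range of the group. Chance gives this in about 1 in 20 groups. Olfr796 had 2.62 CPM (24 counts) in homozygous replicate 2, against 1.6 to 1.76 CPM in the other 3, a gap of 0.841 of the range. Olfr800 had 1.07 CPM (10 counts) in heterozygous replicate 4, against 1.57 to 1.63 CPM in the other 3, a gap of 0.888 of the range. These 2 libraries are also the one with the most Rn45s counts and the one with the most Acta1, and the part of either in these values was not tested.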

How the results depend on the processing

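No gene of the cluster passed an adjusted p of 0.05 in any of the 3 comparisons under any of 20 alternatives each. The sum and the median fold change were below 0 under every alternative. Leaving out 1 library in turn, the homozygous against wild type sum ran from -0.62 to -0.35, the heterozygous one from -0.38 to -0.11 and the homozygous against heterozygous one from -0.38 to -0.15. The log2 ratio to other Olfr counts, homozygous against wild type, was -0.20 over all libraries, -0.07 within set 1 (2 against 2, overlapping) and -0.39 within set 2 (2 against 1 wild type library). Counts of genes with an unadjusted p under 0.05 were small and moved most. For homozygous against wild type (3 genes) the count was 0 with other-Olfr scaling and 1 to 4 leaving out 1 library. For heterozygous against wild type (1 gene) it was 2 without the filter, with library set as covariate or with only the 2 genotypes, 0 without the 4 libraries high in Acta1, and 0 to 2 leaving out 1 library. For homozygous against heterozygous (0 genes) it was 2 without the filter, 1 by DESeq2, 1 without the libraries high in Acta1, and 0 to 3 leaving out 1 library. The cause was not tested.

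Replicate numbers did not pair the libraries: deviations of 10 same-numbered pairs correlated at -0.60 to 0.43, with 3 above 0.1. With a replicate block the counts were 1, 1 and 1 and the sums -0.38, -0.13 and -0.26.

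Of 420 fold changes of named genes under alternatives, 411 kept their sign and 9 turned, all in homozygous against wild type. With other-Olfr scaling Olfr796 was at 0.16 and Olfr812 at 0.20. Leaving out 1 library, Olfr796 ran from -0.37 to 0.18, Olfr812 from -0.36 to 0.16, Olfr810 from -0.58 to 0.13 and Olfr800 from -0.56 to 0.029.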
